A study of Mus musculus with 63 samples.

Results

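ERK feedback genes encode proteins that turn the RAS-ERK kinase cascade down again after it has been switched on, and their mRNA rises with the cascade's own activity. The 9 genes described are the dual-specificity phosphatases Dusp1, Dusp4, Dusp5 and Dusp6, the Sprouty and Spred inhibitors Spry2, Spry4 and Spred1, the pseudokinase Trib1 and the early-response gene Ier3. They are rows of a count table of 55401 mouse genes, found by symbol in the GENCODE M21 annotation. Since several of them were known to be lower after ethanol in these same libraries when they were picked, the members were chosen on the ethanol contrasts, and every ethanol value below is a description without a test. The conditioning, strain and sex contrasts and the differences of the ethanol effect by conditioning and by sex were not used in that choice.

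In the cascade, growth factor receptors and calcium entry load RAS with GTP, and RAF, MEK and ERK then phosphorylate each other in turn. ERK drives transcription of early genes through serum response factor, ETS factors and CREB, and the phosphatases, Sprouty and Spred proteins among its targets act back on ERK, on RAS or on the receptors. In the hippocampus ERK is activated by synaptic activity and by contextual learning.

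RNA was measured in 63 dissected dorsal hippocampi, 1 library each, of adolescent mice of the inbred strains DBA/2J and C57BL/6J, injected once with ethanol or saline and then fear conditioned (FC) or kept as controls without conditioning (noFC). Of the 32 DBA/2J libraries, 16 were from mice given ethanol at 1.5 g/kg and 16 from mice given saline. The 31 C57BL/6J libraries comprised 16 ethanol and 15 saline libraries. Each strain, drug and conditioning state included males and females, which gave 16 groups of 4 libraries, except fear-conditioned C57BL/6J males given saline with 3. No transgene or other allele is named, exact ages and the times between injection, training and dissection are not given in the labels, and 1 piece of dissected tissue holds many cell types. Less RNA per cell and fewer cells of a type therefore cannot be told apart in any result below.

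The libraries held between 21027659 and 61631742 gene counts (median 26379948), and 19974 genes, all 9 members among them, passed the filter on low counts. Markers of dentate gyrus granule cells, of CA1 and of CA3 and CA2 pyramidal cells were present throughout, and none of the marker genes in those lists was at 0 in all libraries. The summed level of 12 choroid plexus markers ran from 193 to 19235 CPM (counts scaled to effective library size) over the libraries, so the dissections differed in how much of that neighbouring tissue they held. Every title carries a number whose meaning is not given. Ethanol and saline swapped title letters between the lower 8 and the upper 8 of these numbers, while FC and noFC kept the same letters in all titles, so conditioning cannot be told apart from the letter.

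Upstream sequences are shown for Dusp1, Dusp5 and Dusp6, whose windows hold letter matches to motifs of factors through which ERK and CREB act on transcription. The window of Spred1 also holds such a match and is not printed. RefSeq upstream windows (build GRCm38.p6) were found for 6 of the 9 members, namely Dusp1, Dusp5, Dusp6, Spry2, Spred1 and Ier3. No entry was matched for Dusp4, Spry4 and Trib1. Each sequence is the 250 bases before the RefSeq start of transcription, 5′ to 3′ on the gene's own strand, with motif matches in capitals. Searched on both strands were the full cAMP response element (CRE) TGACGTCA, the short CRE TGACG (which overlaps the full one), the ETS core CGGAAG, the AP-1 site TGAGTCA, the EGR site GCGTGGGCG, the TATA box TATAAA and the CArG box bound by serum response factor.
Dusp1 (chr17:26508473-26508722, minus strand): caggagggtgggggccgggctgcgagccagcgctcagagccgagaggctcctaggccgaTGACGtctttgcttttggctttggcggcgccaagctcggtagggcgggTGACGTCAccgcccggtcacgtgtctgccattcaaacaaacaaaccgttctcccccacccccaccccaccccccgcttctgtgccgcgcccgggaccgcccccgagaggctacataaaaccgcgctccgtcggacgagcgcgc
Dusp5 (chr19:53528895-53529144, plus strand): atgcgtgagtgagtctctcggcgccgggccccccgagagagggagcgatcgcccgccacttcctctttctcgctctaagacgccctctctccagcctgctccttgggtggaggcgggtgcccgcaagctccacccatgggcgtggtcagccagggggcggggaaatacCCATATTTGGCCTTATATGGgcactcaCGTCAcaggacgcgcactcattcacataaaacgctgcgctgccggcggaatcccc
Dusp6 (chr10:99262981-99263230, plus strand): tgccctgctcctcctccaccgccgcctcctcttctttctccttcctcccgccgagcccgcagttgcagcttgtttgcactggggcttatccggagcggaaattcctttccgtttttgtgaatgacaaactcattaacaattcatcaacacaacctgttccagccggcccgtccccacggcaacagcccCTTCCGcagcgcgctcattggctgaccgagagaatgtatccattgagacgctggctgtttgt
The Dusp1 window holds a full CRE that begins 143 bases before the start and a short CRE that begins at 191. Among all 32851 windows in the RefSeq table, 1.55% hold the full CRE and 17.8% the short one. In Dusp5 a pair of CArG boxes, CCATATTTGG and CCTTATATGG, lies end to end from 82 bases before the start, followed by a short CRE on the reverse strand, and 1.47% of windows hold a CArG box. Dusp6 has an ETS core on the reverse strand 62 bases before its start, and Spred1 has one on the forward strand at 17, against 13.6% of all windows. No AP-1 site, EGR site or TATA box matched in any of the 6 windows, where 4.46%, 0.536% and 12.4% of all windows have one. No searched motif matched in the windows of Spry2 and Ier3. A match is a run of letters, and binding was not measured.

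The level of each gene was set on a common scale as CPM per kilobase of annotated exon, with the SD over all 63 libraries. This length covers the exons of all annotated transcripts, so the order depends in part on the annotation. For Dusp1 it is 3311 bases where the leading mRNA has 1990, and for Trib1 6248 where the leading mRNA has 4330. With the leading mRNA as the length, both would stand higher. Spred1, which brings the RAS inactivator neurofibromin to the membrane (chromosome 2, 117121374 to 117182279), stood at the top with 22.3 ± 2.08 CPM per kb. Dusp6, the cytoplasmic phosphatase specific for ERK (chromosome 10, 99263231 to 99267489), followed with 20.7 ± 3.01, and Spry2, which blocks signals from receptor tyrosine kinases to RAS (chromosome 14, 105891947 to 105896819), with 18.4 ± 2.80. Each of these lay within 1 SD of its neighbour in this order. Dusp5, a nuclear phosphatase specific for ERK (chromosome 19, 53529109 to 53542431), had 12.03 ± 1.85 CPM per kb, and Dusp4, a nuclear phosphatase of several MAP kinases (chromosome 8, 34807297 to 34819894), had 8.27 ± 1.09. Dusp1, the nuclear phosphatase that prefers p38 and JNK and also acts on ERK (chromosome 17, 26505590 to 26562128), stood at 5.01 ± 1.02. Spry4, the second Sprouty in the set (chromosome 18, 38586247 to 38601415), had 3.28 ± 0.399. Trib1, a scaffold for the ubiquitin ligase COP1 (chromosome 15, 59648350 to 59657099), had 2.23 ± 0.286, and Ier3, a small ERK substrate involved in cell survival (chromosome 17, 35821684 to 35822923), came last with 1.88 ± 0.469. Trib1 and Ier3 again overlapped within their spread. Of all 19974 genes tested, 88.7% had a lower level per kb than Spred1 and 38.5% a lower one than Ier3.

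**Figure D1:**
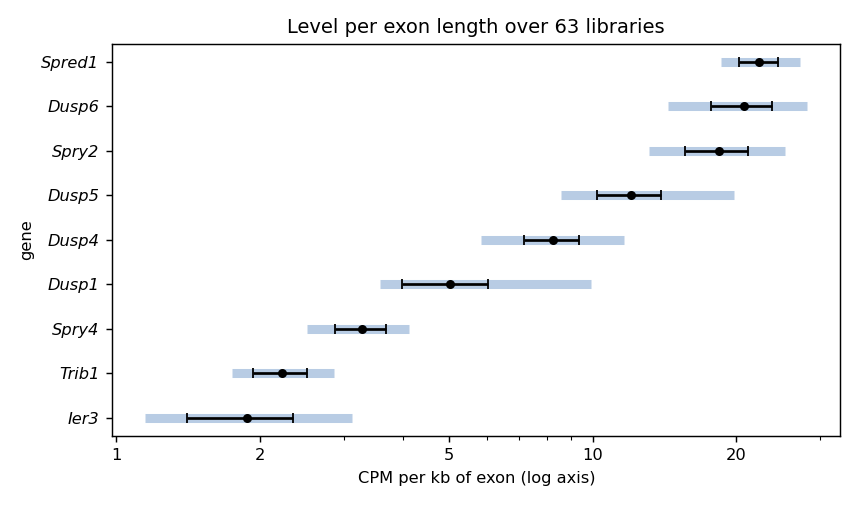
Level of each of the 9 genes in CPM per kilobase of exon on a log axis (points are means, black bars the SD and pale bars the lowest to highest of 63 libraries). Spred1, Dusp6 and Spry2 form the upper group at 18.4 to 22.3 CPM per kb, and Trib1 and Ier3 the lower end near 2.

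Most of the genes are short. The median span of the tested genes was 18107 bases, and 7 of the 9 members were shorter, from 1240 bases for Ier3 to 15169 for Spry4. Spred1 spans 60906 bases. Dusp1 spans 56539 only because a rarer annotated transcript starts far upstream. In the deposited transcript estimates the leading Dusp1 mRNA, of 1990 bases, carried 80.6 ± 11.4% of the Dusp1 counts (SD, n = 63), and the share was 80.1 ± 11% in DBA/2J (n = 32) and 81 ± 11.9% in C57BL/6J (n = 31). The leading Dusp6 mRNA, of 2796 bases, carried 84.8 ± 5.07% of the Dusp6 counts, and Dusp4, Dusp5, Spry2, Spry4 and Ier3 each have 1 transcript in that table. An antisense gene, AC137853.2, covers 22.1% of the exon bases of Dusp5. It was counted at 5 to 31 reads per library, where Dusp5 had 525 to 1858, and the strand setting used for counting is not given in the sources used here.

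After ethanol, 7 of the 9 genes had lower fitted levels in both strains. Spred1 stood at a difference of 0.00 in both, and Dusp1 was the only member with a positive value beyond 0.05 in either strain. The sizes were modest, from -0.09 to -0.49 on the log2 scale among those 7. In DBA/2J, 3 members were called (Dusp6, Spry2 and Spry4), where 0.295% of all tested genes were called. In C57BL/6J, 4 were called (Trib1, Ier3, Spry4 and Dusp5), where 0.0901% of all genes were. DESeq2 called the same 3 in DBA/2J, and 5 in C57BL/6J, where Dusp6 was added. Called means an adjusted p under 0.05 in edgeR's quasi-likelihood test over all genes, and as the members were picked on these contrasts nothing is read from those counts. The median log2 difference of the members was -0.10 in DBA/2J and -0.23 in C57BL/6J, beside 0.00 for all tested genes in each strain.

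**Figure D2:**
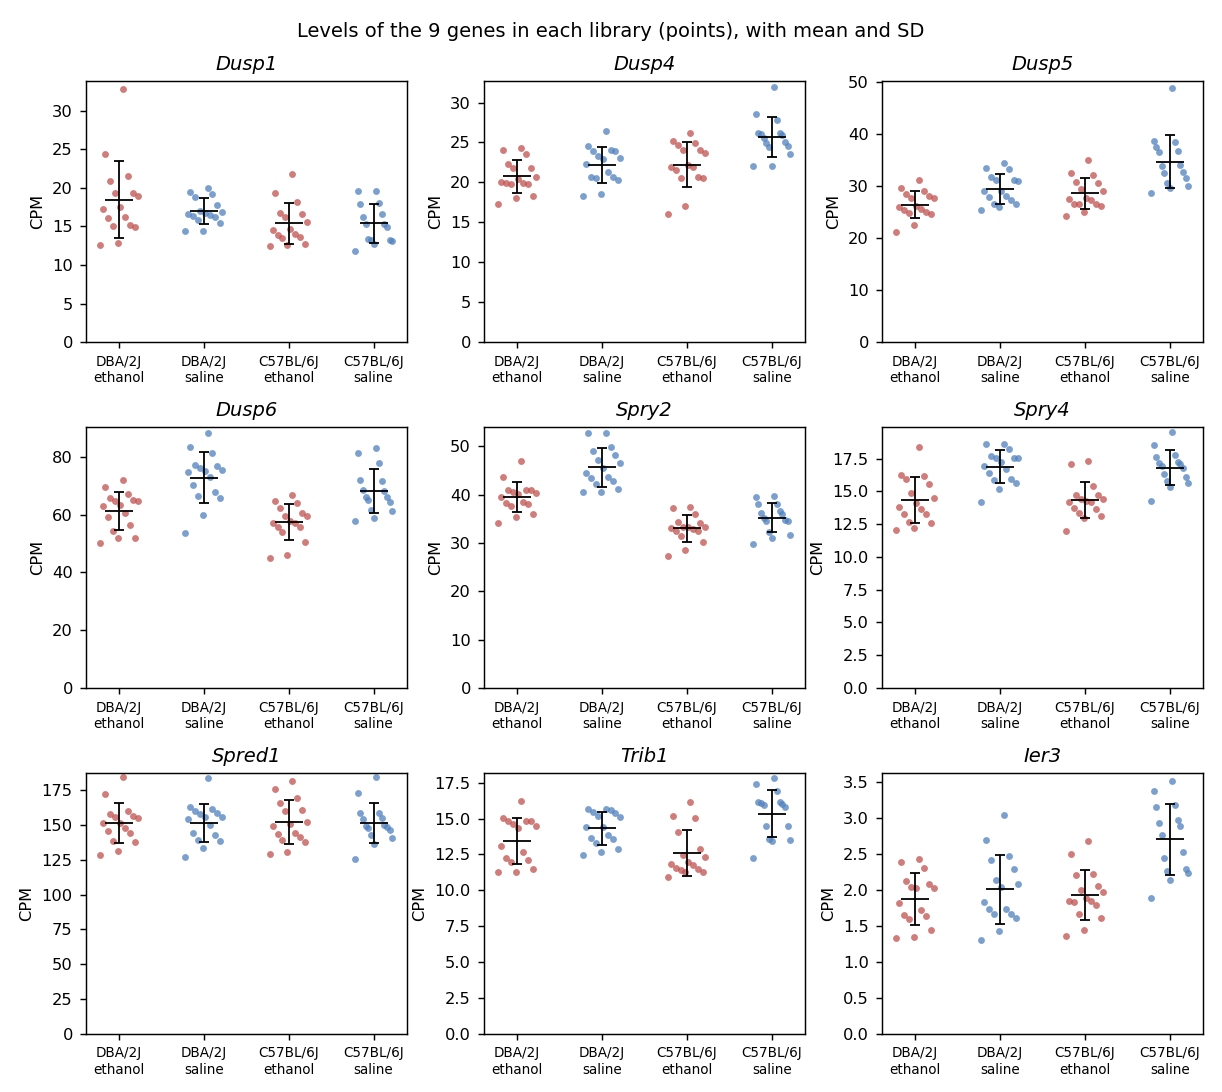
CPM of the 9 genes in each library, by strain and drug (16 libraries per group, 15 for C57BL/6J saline; red points ethanol, blue points saline, black marks mean and SD). Dusp6 and Spry4 are lower with ethanol in both strains, Spry2 mainly separates the strains, and Spred1 lies near 151 CPM in all 4 groups.

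Among the phosphatases, Dusp6 in DBA/2J had 50.1 CPM in the lowest, 63.2 in the median and 72.0 in the highest ethanol library, against 53.7, 74.9 and 88.3 CPM in the saline libraries. All 16 ethanol libraries lay below the saline median, though the groups overlapped. In C57BL/6J, Dusp6 ran from 45.0 CPM through a median of 57.5 to 66.9 CPM with ethanol, against 57.9, 66.2 and 83.1 CPM with saline. There, 15 of 16 ethanol libraries were below the saline median, and the log2 difference was -0.25 (SE 0.06) in each strain. Dusp5 averaged 26.5 ± 2.63 CPM with ethanol and 29.5 ± 2.86 CPM with saline in DBA/2J (SD, n = 16 each), a difference of -0.16 (SE 0.06). In C57BL/6J, Dusp5 averaged 28.6 ± 2.99 CPM with ethanol (n = 16) and 34.7 ± 5.12 CPM with saline (n = 15), a difference of -0.28 (SE 0.06). The highest Dusp5 value, 48.8 CPM, was that of a fear-conditioned C57BL/6J female given saline (library B6_F_FC_SAL_319). Dusp4 differed by -0.10 (SE 0.05) in DBA/2J and by -0.21 (SE 0.05) in C57BL/6J, with 13 and 15 of 16 ethanol libraries below their strain's saline median. Dusp1 did not share this pattern. It averaged 18.5 ± 4.97 CPM with ethanol and 17.0 ± 1.67 CPM with saline in DBA/2J, and 15.4 ± 2.62 CPM with ethanol and 15.4 ± 2.52 CPM with saline in C57BL/6J. The wide spread with ethanol in DBA/2J came from 2 male libraries, DBA_M_FC_EtOH_312 at 32.8 CPM and DBA_M_noFC_EtOH_312 at 24.4 CPM, which were the highest Dusp1 values of all 63.

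Of the Sprouty genes, Spry4 had 12.03, 13.98 and 18.4 CPM (lowest, median and highest) with ethanol in DBA/2J, against 14.2, 17.1 and 18.6 CPM with saline. In C57BL/6J it had 11.98, 14.2 and 17.3 CPM with ethanol, against 14.3, 16.9 and 19.6 CPM with saline. Its log2 difference was -0.24 (SE 0.05) in DBA/2J and -0.23 (SE 0.05) in C57BL/6J, and 15 and 14 of the 16 ethanol libraries lay below the saline median. Spry2 had 34.2, 39.9 and 46.9 CPM with ethanol in DBA/2J, against 40.6, 45.0 and 52.8 CPM with saline, and 10 of the 16 ethanol libraries were below every saline library. In C57BL/6J it averaged 33.0 ± 2.73 CPM with ethanol and 35.2 ± 3.03 CPM with saline. The log2 difference of Spry2 was -0.21 (SE 0.04) in DBA/2J and -0.09 (SE 0.04) in C57BL/6J. Spred1 averaged 151 ± 14.4 CPM with ethanol and 152 ± 13.7 CPM with saline in DBA/2J, and 152 ± 15.6 CPM with ethanol and 151 ± 14.1 CPM with saline in C57BL/6J. Its 95% interval for the difference ran from -0.10 to 0.09 in DBA/2J and from -0.10 to 0.10 in C57BL/6J.

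In C57BL/6J, Ier3 had 1.36, 1.87 and 2.69 CPM with ethanol, against 1.88, 2.76 and 3.53 CPM with saline. All 16 ethanol libraries lay below the saline median, and 8 saline libraries lay above every ethanol library. In DBA/2J it had 1.34, 1.93 and 2.43 CPM with ethanol, against 1.30, 1.94 and 3.05 CPM with saline, with 8 of 16 ethanol libraries on either side of the saline median. The log2 differences were -0.09 (SE 0.10) in DBA/2J and -0.49 (SE 0.10) in C57BL/6J. Ier3 is the scarcest member, at 30 to 162 counts per library. Trib1 averaged 13.5 ± 1.60 CPM with ethanol and 14.3 ± 1.15 CPM with saline in DBA/2J, and 12.6 ± 1.61 CPM with ethanol and 15.3 ± 1.63 CPM with saline in C57BL/6J. Its log2 differences were -0.09 (SE 0.06) in DBA/2J and -0.29 (SE 0.06) in C57BL/6J. The median library given ethanol had 7 of the 9 genes below its strain's saline median in DBA/2J and 8 in C57BL/6J, and in saline libraries the median was 4 in both. The saline value is set by construction, since the reference is the median of those same libraries. As the members were picked on these contrasts and vary in part together, nothing is read from these counts.

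The ethanol difference in DBA/2J minus that in C57BL/6J was 0.40 (SE 0.14) for Ier3, 0.20 (SE 0.08) for Trib1 and -0.12 (SE 0.06) for Spry2, and between -0.01 and 0.13 for the other 6. None of the 9 was called in this comparison by edgeR or by DESeq2, where 2 had an unadjusted p under 0.05 and 0.01% of all genes were called. As these values come from the ethanol contrasts, they too are a description.

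Single libraries and title numbers bore on the ethanol calls. In C57BL/6J the count of 4 fell to 1 without the saline library B6_F_FC_SAL_319, and to 2 without the saline library B6_M_FC_SAL_322. Without B6_F_FC_SAL_319 Ier3 differed by -0.46, Spry4 by -0.22 and Dusp5 by -0.24, each at an edgeR adjusted p of 0.053. Dusp5 lost its call also without B6_M_FC_SAL_318 (-0.26, edgeR adjusted p = 0.072). In DBA/2J, Dusp6 lost its call without the saline library DBA_F_FC_SAL_317 (-0.23, edgeR adjusted p = 0.053). Calls over all genes in these refits are not given. Fitted on the lower title numbers alone, 0 members were called in either strain, and on the upper title numbers alone 1 was called in DBA/2J (Spry4) and 0 in C57BL/6J. Each set has fewer libraries. Over all genes the 18 calls in C57BL/6J became 0 on the lower and 1 on the upper numbers. The 59 calls in DBA/2J also became fewer on the upper numbers, and their count on the lower numbers is not given. The differences were unequal between these title sets for Spry4 in DBA/2J, at -0.09 (SE 0.06) in the lower and -0.38 (SE 0.06) in the upper numbers, and for Ier3 in C57BL/6J, at -0.26 (SE 0.13) in the lower and -0.70 (SE 0.13) in the upper numbers. Whether these 2 values differ was not tested for either gene. Meningeal and fibroblast markers are given beside Ier3 in C57BL/6J. Of that list 5 of 6 genes had negative fitted differences with ethanol (median log2 -0.23, 0 called by edgeR or DESeq2, 0 at an unadjusted p under 0.05, none at 0 in all libraries), and their summed level ran from 74.6 to 310 CPM with ethanol and from 72.1 to 668 CPM with saline. With the mean of these markers as a covariate Ier3 differed by -0.46 (SE 0.08).

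The rest of the pathway gave the setting for these values. These gene lists, too, were chosen with earlier results of these data known, so their ethanol values are a description. Of all tested genes edgeR called 0.295% in DBA/2J and 0.0901% in C57BL/6J. Of 22 core genes from RAS to ERK and its kinases 0 were called after ethanol in either strain by edgeR or DESeq2, 2 had an unadjusted p under 0.05 in DBA/2J and 0 in C57BL/6J, and their medians were -0.01 and 0.00. Among 9 other MAP kinase phosphatases 0 were called by either tool, with 2 at an unadjusted p under 0.05 in DBA/2J and 1 in C57BL/6J. The smallest p there belonged to Dusp9, an ERK phosphatase (0.63, SE 0.19, edgeR adjusted p = 0.16), and Dusp16, a JNK phosphatase (0.16, SE 0.05, edgeR adjusted p = 0.26), both positive in DBA/2J. Of 12 other RAS-ERK inhibitors tested (Spry3 did not pass the filter) 0 were called by either tool, with 0 and 2 at an unadjusted p under 0.05, and Errfi1, an inhibitor of the EGF receptor, had -0.12 in C57BL/6J (SE 0.04, edgeR adjusted p = 0.57). Both other tribbles genes, Trib2 and Trib3, were uncalled by either tool, with 0 at an unadjusted p under 0.05, as were all 10 ETS factors and other readouts of MEK, with 0 in DBA/2J and 1 in C57BL/6J, and all 14 growth factors and receptors, with 1 and 0. Of 19 early genes that respond to ERK, 1 fell in DBA/2J (Arc, a synaptic early gene, -0.49, SE 0.07, edgeR adjusted p = 7.4e-05) and 16 had negative values, with a median of -0.07 and 9 at an unadjusted p under 0.05. DESeq2 called 2 there, Arc and, with a positive difference, Btg2, an early gene that restrains proliferation (0.13, SE 0.04, edgeR adjusted p = 0.11). In C57BL/6J 2 fell (Arc, -0.45, SE 0.07, edgeR adjusted p = 0.0017, and the transcription factor Egr2, -0.53, SE 0.11, edgeR adjusted p = 0.019) and 18 had negative values, with a median of -0.14 and 10 at an unadjusted p under 0.05. DESeq2 called the same 2 there.

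Whether the ethanol effect on the members depended on training or on sex was tested next, with contrasts not used to choose them. None of the 9 was called in either comparison by edgeR or DESeq2, where 0% of all genes were called in each. The ethanol difference in FC minus that in noFC mice lay between -0.12 (Dusp4) and 0.16 (Ier3), with 0 members at an unadjusted p under 0.05. In FC mice Dusp6 differed by -0.27 (SE 0.08) in DBA/2J and by -0.28 (SE 0.08) in C57BL/6J, and in noFC mice by -0.24 (SE 0.08) and -0.21 (SE 0.08). Spry4 in DBA/2J differed by -0.16 (SE 0.07) in FC mice and by -0.31 (SE 0.07) in noFC mice. The ethanol difference in males minus that in females lay between -0.10 (Dusp4) and 0.24 (Dusp1, SE 0.11, edgeR adjusted p = 0.93), and Dusp1 was the single member with an unadjusted p under 0.05. That value for Dusp1 was 0.50 on the lower and -0.06 on the upper title numbers. Choroid plexus markers also differed in this comparison, with 12 of 12 positive, a median of 2.36 and 0 called (edgeR; 12 at an unadjusted p under 0.05), and with their mean as a covariate the value for Dusp1 was 0.25 (SE 0.11). The widest 95% intervals in these comparisons belonged to Ier3 and reached from -0.12 to 0.44 for training and from -0.27 to 0.29 for sex. Differences in the ethanol effect within these intervals were not excluded for Ier3.

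Fear conditioning moved none of the 9 genes past the threshold. In DBA/2J, 0 members and 0% of all genes were called, the fitted FC minus noFC differences lay between -0.13 (Ier3) and 0.11 (Dusp1), and 0 members had an unadjusted p under 0.05. In C57BL/6J, 0 members and 0% of all genes were called as well, but all 9 differences were positive, from 0.01 (Dusp6) to 0.22 (Dusp1), with a median of 0.08. Over all tested genes in that strain 50.4% of the differences were positive, with a median of 0.00. DESeq2 called 0 members in either strain. In C57BL/6J 2 members had an unadjusted p under 0.05, Dusp1 (SE 0.08, edgeR adjusted p = 1) and Spry4 (0.11, SE 0.05, edgeR adjusted p = 1). The difference of the conditioning effects between strains was called for 0 members by edgeR or DESeq2 and for 0% of all genes, with 0 at an unadjusted p under 0.05, and was negative for 8 of 9. It was largest for Ier3 at -0.28 (95% interval -0.56 to 0.00).

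**Figure D3:**
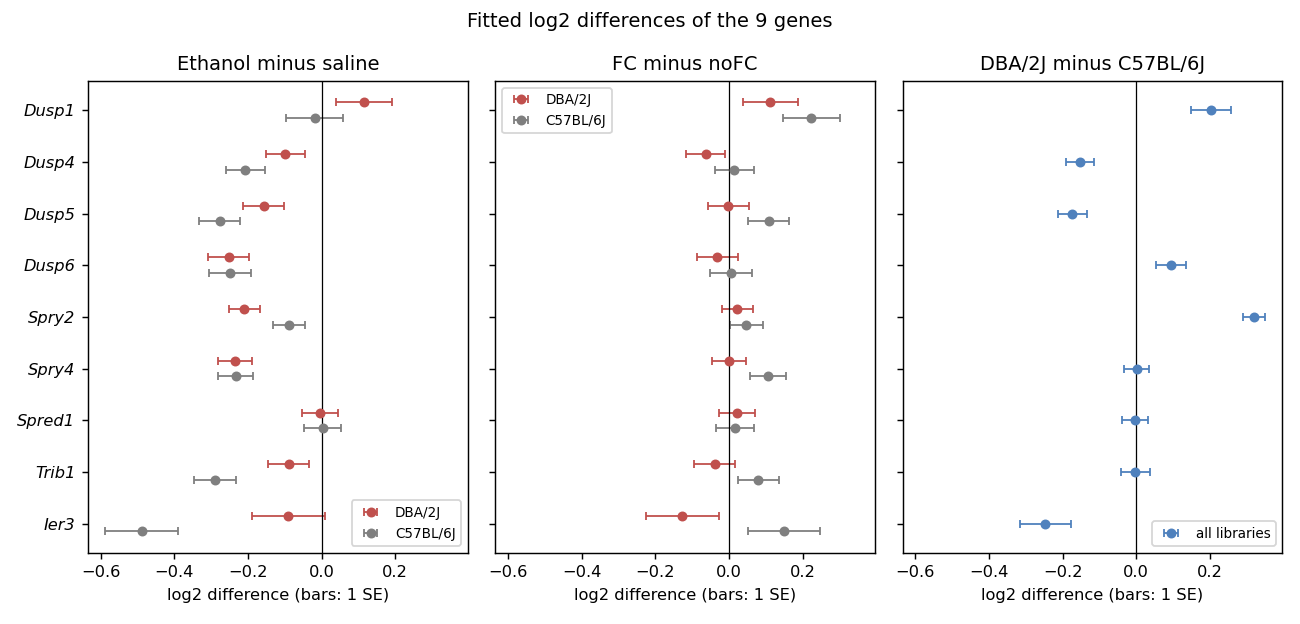
Fitted log2 differences of the 9 genes for ethanol minus saline and FC minus noFC in each strain (red DBA/2J, grey C57BL/6J) and for DBA/2J minus C57BL/6J (blue), with bars of 1 SE. Ethanol values lie left of 0 for 7 genes in both strains, conditioning values in C57BL/6J lie at or right of 0, and strain values run from -0.25 for Ier3 to 0.32 for Spry2.

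Dusp1 showed the largest conditioning value, and its levels are given by group. In C57BL/6J it had 12.4, 16.6 and 21.8 CPM (lowest, median and highest) with FC, against 11.8, 14.2 and 16.7 CPM with noFC, and 7 of 15 FC libraries lay above every noFC library. Dusp1 ran against CA3 and CA2 markers within groups (r = -0.71). All 5 of these markers had negative FC minus noFC differences in C57BL/6J (median -0.04, 0 called by edgeR or DESeq2, 0 at an unadjusted p under 0.05). With their mean as a covariate Dusp1 differed by 0.17 (SE 0.06), beside 0.22 without it. The part of these cells in the Dusp1 difference was not tested. Within that strain the males stood apart from the females. In C57BL/6J males given ethanol the FC libraries had 16.6, 18.1, 19.3 and 21.8 CPM, against 12.6, 12.7, 13.8 and 15.5 CPM in noFC libraries. With saline the FC males had 15.3, 18.01 and 19.6 CPM, against 11.8, 12.8, 13.2 and 13.4 CPM in noFC males. The ranges of FC and noFC males did not overlap within either drug, at 3 or 4 libraries per group. How many of all tested genes separate in this way was not counted. In C57BL/6J females the FC mean was 13.4 ± 0.676 CPM and the noFC mean 15.6 ± 1.07 CPM with ethanol, and 16.8 ± 2.70 CPM and 14.9 ± 1.29 CPM with saline (SD, n = 4 each). The fitted conditioning difference was 0.47 (SE 0.11) in C57BL/6J males and -0.02 (SE 0.11) in C57BL/6J females. This split by sex was singled out after the values were seen, and the difference between the sexes was not tested. In DBA/2J the corresponding differences were 0.18 (SE 0.11) in males and 0.04 (SE 0.11) in females.

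**Figure D4:**
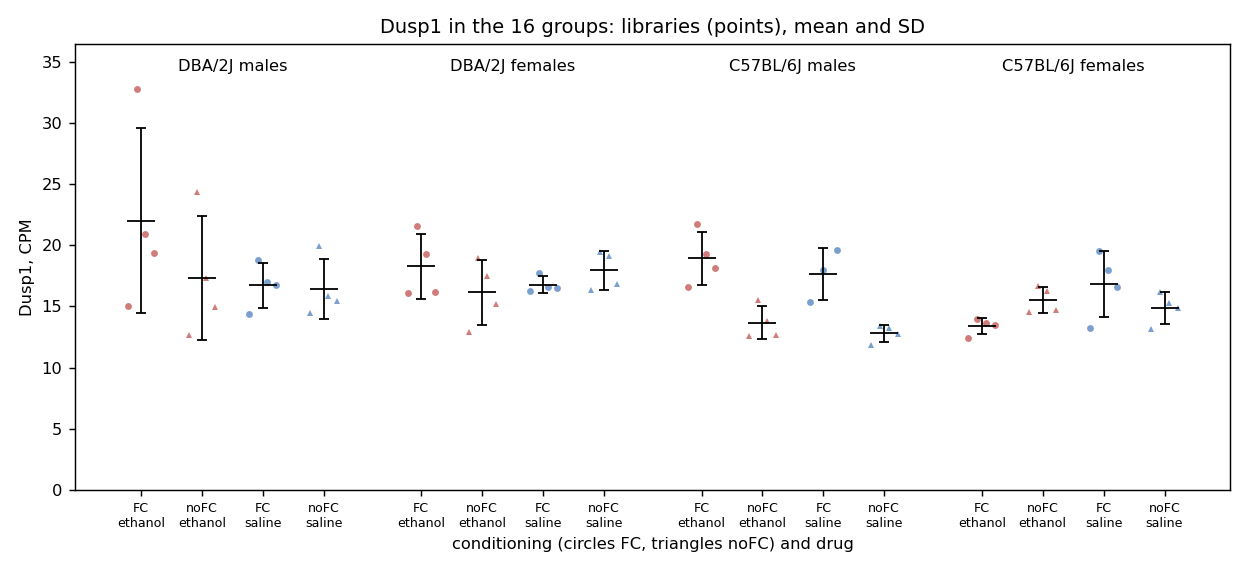
Dusp1 in CPM in each library of the 16 groups of strain, sex, drug and conditioning (circles FC, triangles noFC, red ethanol, blue saline, black marks mean and SD). FC lies above noFC in C57BL/6J males with either drug, at 15.3 to 21.8 CPM against 11.8 to 15.5 CPM, and the DBA/2J males given ethanol hold the highest library at 32.8 CPM. The split by sex was singled out after the values were seen.

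Activity genes gave a comparison for training, from a list chosen with earlier results of these data known. Of the 19 early genes that respond to ERK, edgeR called 0 in either strain, with 6 at an unadjusted p under 0.05 in DBA/2J and 11 in C57BL/6J, and DESeq2 called 0 in DBA/2J and 2 in C57BL/6J (Fos and Arc). Their median difference was 0.07 in DBA/2J and 0.17 in C57BL/6J. Fos, an activity-induced transcription factor, averaged 28.4 ± 5.81 CPM with FC and 22.8 ± 4.17 CPM with noFC in DBA/2J, and 23.1 ± 4.52 CPM with FC and 17.2 ± 2.86 CPM with noFC in C57BL/6J. Its log2 difference was 0.34 (SE 0.08, edgeR adjusted p = 1) in DBA/2J and 0.42 (SE 0.08, edgeR adjusted p = 0.073) in C57BL/6J. Trib1 (r = 0.68) and Dusp1 (r = 0.67) were the members most like Fos within groups. In the same contrasts Trib1 differed by -0.04 (SE 0.06) and 0.08 (SE 0.06), and Dusp1 by 0.11 and 0.22. Choroid plexus markers differed with training in DBA/2J, with 12 of 12 positive, a median of 1.52 and 0 called (edgeR; 8 at an unadjusted p under 0.05), and summed levels of 238 to 17607 CPM with FC and 230 to 11472 CPM with noFC. With their mean as a covariate 0 of the 9 members were called for training in either strain.

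The strains differed in 6 of the 9 genes, in a comparison where 50% of all tested genes were called, so the members' share is near that of genes in general. Spry2, Dusp1 and Dusp6 were higher in DBA/2J, and Ier3, Dusp5 and Dusp4 were lower in DBA/2J. Spry4, Spred1 and Trib1 did not pass the test, each within 0.01 of 0 on the log2 scale.

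Spry2 was set apart most clearly. It had 34.2, 41.1 and 52.8 CPM (lowest, median and highest) in 32 DBA/2J libraries, against 27.4, 34.2 and 39.6 CPM in 31 C57BL/6J libraries. All 32 DBA/2J libraries lay above the C57BL/6J median and 24 lay above every C57BL/6J library. The log2 difference was 0.32 (SE 0.03, edgeR adjusted p = 3e-13). Dusp1 had 12.6, 16.8 and 32.8 CPM in DBA/2J, against 11.8, 14.9 and 21.8 CPM in C57BL/6J, and 28 of 32 DBA/2J libraries were above the C57BL/6J median. Its difference was 0.20 (SE 0.05, edgeR adjusted p = 0.0013). Dusp6 averaged 67.0 ± 9.65 CPM in DBA/2J (SD, n = 32) and 62.6 ± 8.81 CPM in C57BL/6J (SD, n = 31), a difference of 0.09 (SE 0.04, edgeR adjusted p = 0.044). Leaving out any of 27 single libraries ended the call for Dusp6, with adjusted p of up to 0.072 in edgeR, and so did keeping all low-count genes in the test (edgeR adjusted p = 0.067), a covariate for meningeal markers (0.08, edgeR adjusted p = 0.06) and either set of title numbers alone.

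Among the genes lower in DBA/2J, Ier3 had 1.30, 1.93 and 3.05 CPM in DBA/2J, against 1.36, 2.22 and 3.53 CPM in C57BL/6J, with 24 of 32 DBA/2J libraries below the C57BL/6J median and a difference of -0.25 (SE 0.07, edgeR adjusted p = 0.0025). Much of this lay in saline libraries, where Ier3 averaged 2.01 ± 0.479 CPM in DBA/2J (SD, n = 16) and 2.71 ± 0.4926 CPM in C57BL/6J (SD, n = 15), while ethanol libraries averaged 1.88 ± 0.357 CPM in DBA/2J and 1.93 ± 0.352 CPM in C57BL/6J (SD, n = 16 each). Dusp5 had 21.2, 27.8 and 34.4 CPM in DBA/2J, against 24.3, 30.7 and 48.8 CPM in C57BL/6J, a difference of -0.17 (SE 0.04, edgeR adjusted p = 2e-04). Dusp4 had 17.4, 20.96 and 26.4 CPM in DBA/2J, against 15.99, 24.4 and 31.9 CPM in C57BL/6J. For Dusp4 30 of 32 DBA/2J libraries lay below the C57BL/6J median, and the difference was -0.15 (SE 0.04, edgeR adjusted p = 0.00051).

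Spry4, Spred1 and Trib1 had strain differences of 0.00 each, with 95% intervals of -0.07 to 0.07, of -0.08 to 0.07 and of -0.08 to 0.08, and edgeR adjusted p from 0.93 to 0.99. Trib1 averaged 13.9 ± 1.44 CPM in DBA/2J (SD, n = 32) and 13.9 ± 2.11 CPM in C57BL/6J (SD, n = 31).

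Fitted on the lower title numbers alone, 2 members passed the strain test (Spry2 and Ier3), and on the upper numbers alone 5 passed, all but Dusp6 of the 6. Over all genes 7264 of 20598 tested were called on the lower and 7038 of 19761 on the upper numbers. The sign was the same for all 6 in both. Cell type markers differed between the strains as well, in the comparison where 50% of all tested genes were called. Some lists were called in both directions, namely astrocytes (3 of 8 higher and 2 lower in DBA/2J), microglia (2 of 8 higher, 3 lower) and CA3 and CA2 pyramidal cells (2 of 5 higher, 2 lower). Oligodendrocyte markers, 8 of 8 tested, had lower levels in DBA/2J (median log2 -0.41, 8 called), with summed levels of 5102 to 14702 CPM in DBA/2J and 8082 to 18449 CPM in C57BL/6J, and 5 of 6 dentate gyrus granule cell markers were lower (median -0.24, 5 called), with summed levels of 275 to 565 CPM in DBA/2J and 391 to 619 CPM in C57BL/6J. Single granule cell markers had strain differences from -1.46 to 0.09. No oligodendrocyte or granule cell marker was at 0 in all libraries. Dusp4 followed the granule cell markers within groups (Pearson r = 0.65 over 63 libraries), and the part of these cells in its strain difference was not tested.

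Elsewhere in the pathway the strain comparison called 11 of 22 core genes (3 higher and 8 lower in DBA/2J), 7 of 9 other MAP kinase phosphatases (3 higher, 4 lower), 9 of 12 other inhibitors (6 higher, 3 lower), 1 of 2 other tribbles genes (higher), 12 of 19 early genes (10 higher, 2 lower), 6 of 10 ETS factors and MEK readouts (2 higher, 4 lower) and 9 of 14 growth factors and receptors (5 higher, 4 lower). Beside these counts stand the 50% of all tested genes called. The smallest p among the phosphatases was that of Dusp26 (-0.97, SE 0.08, edgeR adjusted p = 7.9e-15), and among the inhibitors that of Lrig1, which restrains receptor tyrosine kinases (0.66, SE 0.03, edgeR adjusted p = 3.2e-26). Spry1, another Sprouty, was lower in DBA/2J (-0.29, SE 0.04, edgeR adjusted p = 3.5e-09), opposite in sign to Spry2. Trib2 was higher (0.24, SE 0.03, edgeR adjusted p = 1e-09). Among early genes Npas4, a neuron-specific activity gene, was higher in DBA/2J (0.50, SE 0.05, edgeR adjusted p = 3.8e-13).

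Males and females did not differ detectably in the members. None of the 9 was called for sex by edgeR or DESeq2, where 0.2% of all genes were called, and 0 had an unadjusted p under 0.05. The male minus female differences lay between -0.05 (Dusp6) and 0.05 (Ier3). Dusp1 averaged 16.9 ± 4.26 CPM in males (SD, n = 31) and 16.2 ± 2.24 CPM in females (SD, n = 32). The widest 95% interval, that of Ier3, ran from -0.09 to 0.19.

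The members did not vary as 1 block from library to library. After the mean of each of the 16 groups was subtracted from log2 CPM, 24 of the 36 pairs of members were positively correlated over 63 libraries, with a median Pearson r of 0.16 and a range of -0.41 to 0.60. These correlations share library, depth and dissection and are given as a description. Dusp4, Dusp5 and Dusp6 moved together (r = 0.60 for Dusp5 with Dusp6, 0.54 for Dusp4 with Dusp5 and 0.52 for Dusp4 with Dusp6). Spry2 and Spred1 had r = 0.57. Trib1 went with Spry4 (r = 0.44) and Dusp1 (r = 0.43). Ier3 ran against Dusp6 (r = -0.41) and Dusp4 (r = -0.34), and Dusp1 against Dusp6 (r = -0.33).

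**Figure D5:**
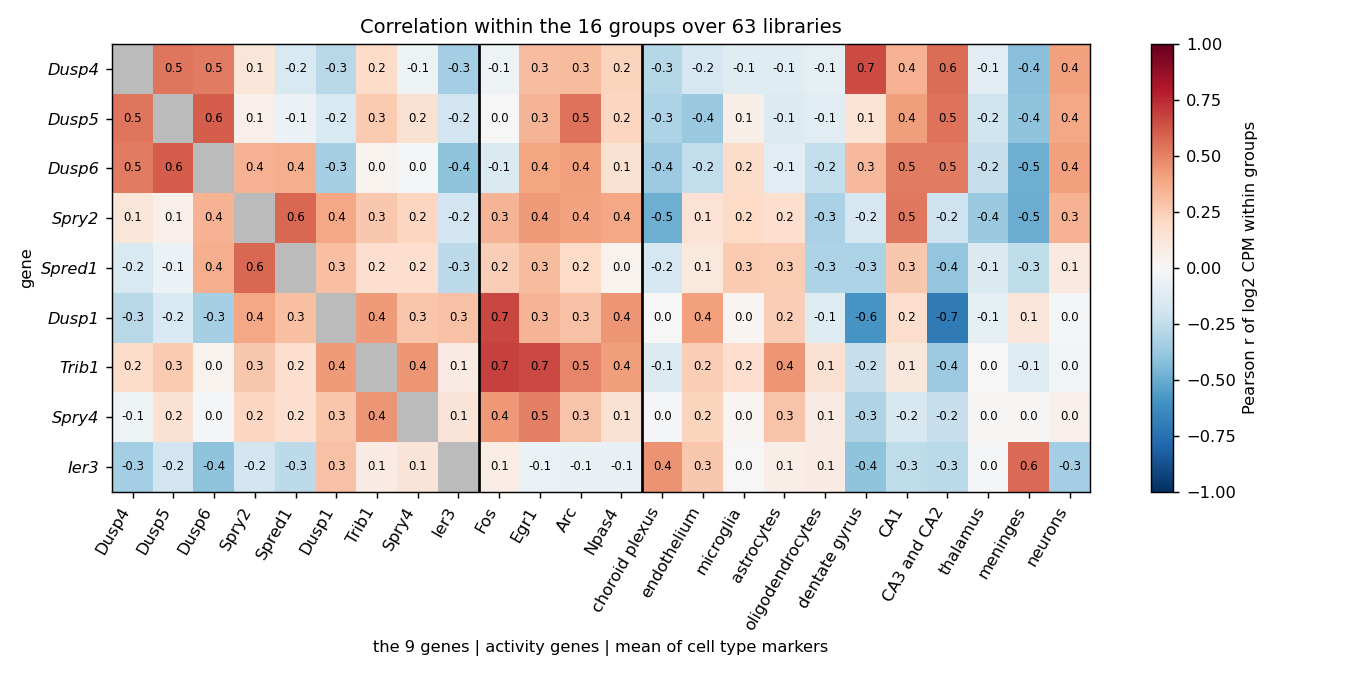
Pearson r of log2 CPM after subtraction of the group means over 63 libraries, for each of the 9 genes (rows) with the other 8, with 4 activity genes and with the mean of 11 cell type marker lists (columns; grey marks a gene with itself). Dusp4, Dusp5 and Dusp6 share positive values with CA3 and CA2, CA1 and general neuron markers. Dusp1 has -0.71 with CA3 and CA2 markers, and Ier3 has its highest value, 0.57, with meningeal markers.

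The same 3 phosphatases followed markers of CA3 and CA2 pyramidal cells, with r = 0.56 for Dusp4, 0.54 for Dusp5 and 0.52 for Dusp6, while Dusp1 had r = -0.71 with that list and -0.59 with granule cell markers. For the 3 this was not particular to CA3 and CA2. With CA1 markers Dusp4 had r = 0.35, Dusp5 0.41 and Dusp6 0.52, and with general neuron markers 0.41, 0.39 and 0.41. With meningeal markers they had -0.41, -0.41 and -0.49 in the same order. The summed level of the 5 CA3 and CA2 markers ran from 185 to 347 CPM in DBA/2J and from 222 to 356 CPM in C57BL/6J. With their mean as a covariate the strain difference of Dusp1 was 0.16 (SE 0.04, edgeR adjusted p = 0.00052). Ier3 had r = 0.57 with meningeal and 0.45 with choroid plexus markers. With choroid plexus markers as a covariate its strain difference was -0.27 (SE 0.06, edgeR adjusted p = 0.00029).

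Genes whose within-group pattern was most like that of each member were found among 12936 genes with a mean log2 CPM over 1. Spred1 was closest to Homer1, a postsynaptic scaffold gene (r = 0.90), Fut9 (0.89) and Far1 (0.86). Dusp6 was closest to Neurod6, a transcription factor of pyramidal neurons (r = 0.85), and to the calcineurin subunit genes Ppp3r1 (0.83) and Ppp3ca (0.83). Dusp1 was closest to Hivep1 (r = 0.85), Cobl (0.83) and Olfm2 (0.82), and Dusp4 to Brinp1 (0.78), Kalrn (0.77) and Ppm1l (0.75). The nearest genes to Dusp5 were Nptx2, an activity-regulated pentraxin (r = 0.71), Tlnrd1 (0.70) and Pip4k2c (0.69). Those nearest to Spry2 were Kcnab3 (r = 0.68), Dclk1 (0.67) and Nr4a2 (0.66). Trib1 was closest to the early genes Fos (r = 0.68), Egr2 (0.67) and Egr1 (0.66). Ier3 was closest to Cib1 (r = 0.69), Ccn2 (0.66) and Sult1a1 (0.65), and Spry4, with the loosest match, to Ttll12 (r = 0.51), Egr1 (0.51) and Tmem185a (0.47).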

How the data were processed

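The authors deposited whole-number read counts per gene and estimated counts per transcript for 63 libraries. The tools named in the submitters' processing notes are featureCounts, HISAT2, Salmon, fastp and DESeq2, without versions or roles, and the build GRCm38. That build is C57BL/6J sequence, and whether DBA/2J variants changed counts was not tested. Per the labels' protocols, libraries were made with a stranded mRNA kit and read from 1 end (75 nt). Genes were filtered with filterByExpr (minimum count 10), scaled with TMM and fitted in edgeR 4.0.16 (quasi-likelihood, 1 coefficient per group, two-sided), with p-values adjusted by Benjamini and Hochberg over 19974 genes and calls at an adjusted p under 0.05. Each library was treated as 1 animal, which the labels do not state, so p-values measure the spread between these libraries. Depth per library was 21027659 to 61631742 counts. Estimated counts were summed per gene and rounded as an alternative, and DESeq2 1.42.0, RLE scaling, no filter, title sets, a replicate block, marker covariates and leaving out each library were others. The edgeR fit was tested on simulated counts with known differences for ethanol in DBA/2J and none in C57BL/6J. Other comparisons and steps were not tested in this way. Members and gene lists were chosen with earlier results of these data known. Named genes are the members, up to 4 genes per pathway list and comparison with the smallest p, Fos, Egr1, Arc and Npas4, and the 3 genes most like each member. The list of other inhibitors includes Spry1, named also for its family.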

Additional observations from a re-analysis of the deposited data

Results flagged for a closer look

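Within the groups of 4 libraries, 135 combinations of member and group were screened for a library far from the other 3 (Dixon's ratio, 95% level), and 6 stood out, where chance alone flags about 1 in 20. Dusp4 was low at 18.3 CPM in noFC DBA/2J males given saline (DBA_M_noFC_SAL_312), and high at 24.0 CPM in noFC DBA/2J males given ethanol (DBA_M_noFC_EtOH_324). Dusp6 was low at 54.1 CPM in noFC C57BL/6J males given ethanol (B6_M_noFC_EtOH_318). Spred1 was low at 136.5 CPM in noFC C57BL/6J females given saline (B6_F_noFC_SAL_315), and at 133.8 CPM in FC DBA/2J females given saline (DBA_F_FC_SAL_313). Trib1 was low at 11.3 CPM in noFC DBA/2J females given ethanol (DBA_F_noFC_EtOH_321).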

How the results depend on the processing

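No member changed sign where it was called, and for members the count called stayed within 1.5 times under DESeq2, RLE scaling, no filter on low counts, transcript sums, each strain alone, the replicate block and the covariates for choroid plexus, meningeal and CA3 and CA2 markers (the meningeal and the CA3 and CA2 ones were chosen after the data were seen). The exceptions were the title sets. On the lower title numbers alone, 0 members were called for ethanol in DBA/2J, 0 in C57BL/6J and 2 for strain. On the upper numbers alone, 1 was called for ethanol in DBA/2J and 0 in C57BL/6J. Each set has fewer libraries, and the cause of the change was not tested otherwise. Leaving out each library in turn, with the tested genes and dispersion trend kept, gave 2 to 3 members for ethanol in DBA/2J, 1 to 5 in C57BL/6J, 5 to 6 for strain and 0 for all other comparisons. Over all genes, the 59 calls for ethanol in DBA/2J became 27 in DBA/2J alone, 33 without the filter, 15 on the upper title numbers, 109 with the replicate block and 110 with DESeq2. The 18 calls in C57BL/6J became 0 on the lower and 1 on the upper title numbers, and the 2 calls for ethanol by strain became 0 on either title set, 4 with the block and 6 with DESeq2. Conditioning in C57BL/6J, with 0 calls, had 1 in that strain alone, 2 or 3 with marker covariates and 6 with DESeq2. Sex, with 40, had 17 on the lower and 23 on the upper title numbers and 25 with transcript sums. Ethanol by sex, with 0, had 41 on the lower title numbers and 1 with transcript sums.

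The labels do not say that a title number pairs libraries, and not every same-numbered pair was correlated. Deviations from the group means were correlated over 0.1 in 32 of 93 same-numbered pairs within a strain and sex (median 0.04) and in 73 of 279 pairs with different numbers (median -0.01). As a hint from the data and not the design, 27 of 63 libraries correlated best with their own number. With the replicate block the members called were 3 for ethanol in DBA/2J and 5 in C57BL/6J, where Dusp6 was added. No block could be fitted for strain and sex, since each number belongs to 1 strain and sex. Depth limits Ier3 most, at 30 to 162 counts per library.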
